A study of Arabidopsis thaliana with 6 samples.

Results

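The genes described here are 10 members of ERF group IX, a family of ethylene response factors, in leaves of Arabidopsis thaliana: ERF1, ERF1A, ERF2, ERF5, ERF6, ERF14, ERF15, ERF104, ERF105 and ORA59. They were taken from the deposited table by their AGI locus codes, and all 10 were among its 28387 genes. The family was selected on the log2 fold changes of ERF6 and ERF105 (AT5G51190), both lower in the mutant, so its difference between mutant and wild type is given as a description, with no p-value for a member. ERF group IX holds 17 genes, and the 7 that were not picked are described beside the 10.

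The study profiled leaves of 3-week-old plants on 6 Affymetrix arrays, 3 for each line. The mutant was atpip1;2-1, a T-DNA insertion line for PIP1;2, which codes for an aquaporin, and the comparison line was the wild type N-60000. Each array held total RNA pooled from 5 plants, 15 plants per line, grown in a greenhouse under a 12 h photoperiod at 24 °C by day and 20 °C by night, 60% relative humidity, about 70 to 80 µmol m-2 s-1 of light and 370 µmol mol-1 CO2. The mutant was 1 insertion line, so effects of other changes in its background cannot be told apart from those of the insertion.

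Group IX factors bind DNA through the AP2/ERF domain that gives the family its name, many of them at the GCC box of defence gene promoters, and most are described as activators. Subgroup IXb (ERF5, ERF6, ERF104, ERF105, ERF106 and ERF107) is known for transcripts that respond quickly to wounding, elicitors, cold or osmotic stress. Subgroup IXc includes ERF1 and ORA59, at which the ethylene and jasmonate pathways meet to switch on plant defensin genes. ERF1A, ERF2 and ERF13 form subgroup IXa.

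Values are log2 expression values made by the authors with RMA, so a difference of 1 is a factor of 2, and all differences are mutant minus wild type. A value depends on its gene's probes, so levels were set against the distribution of all gene means only as a rough guide to dim and bright signals. The arrays correlated with each other at 0.975 to 0.989 over genes. PIP1;2 itself had 5.16, 5.51 and 5.18 in the mutant arrays and 8.73, 9.14 and 8.74 in the wild type arrays, a log2 fold change of -3.59 (SE 0.18, limma adjusted p = 0.000148). Markers of mesophyll (RBCS1A, LHCB1.2, LHCB2.1 and RCA) had values of 8.76 or more on every array, where the upper quartile of gene means was 5.79. The 3 root markers (COBL9, EXPA7 and RHD6) and 3 flower markers (AP1, AG and AP3) lay at or below 3.24 on every array, and none of the 16 marker genes for mesophyll, guard cells, phloem, roots and flowers passed the threshold (2 had an unadjusted limma p under 0.05, as did 12.2% of all genes). Those 2, both with limma adjusted p above the threshold, were LHCB1.2, with 0.86 (SE 0.20), and AP3, with -0.50 (SE 0.19). Their part in the results below was not tested.

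The 4 picked genes of subgroup IXb were lower in the mean in the mutant. The other 6, of subgroups IXa and IXc, had log2 fold changes from -0.19 (ERF1) to 0.41 (ERF15). ERF6 was 3.96-fold lower, ERF105 3.02-fold lower, ERF104 2.08-fold lower and ERF5 1.49-fold lower. None of these 4 had a mutant array as high as the lowest wild type array, though the groups of ERF5 were only 0.004 apart. The other 6 of the 10 genes overlapped between the groups. Over all genes, 9.24% had groups without overlap and the mutant lower. The family was selected on ERF6 and ERF105, so this count is a description only. In bulk leaf RNA, fewer cells that express a gene and less transcript per cell cannot be told apart.

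ERF6 (AT4G17490, chromosome 4), a factor that restrains leaf growth under osmotic stress and a substrate of the MAP kinases MPK3 and MPK6, showed the largest difference of the family. Its log2 values were 5.00, 5.70 and 5.14 in the wild type arrays and 3.29, 3.49 and 3.11 in the mutant arrays. The groups were 1.51 apart at their nearest arrays, and the largest spread came from wild type array 2, the highest of the 6. The means were 5.28 ± 0.37 and 3.29 ± 0.19 (SD, n = 3), and the log2 fold change was -1.98 (SE 0.21), the 9th lowest of all genes.

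ERF105 (AT5G51190, chromosome 5), a factor of cold acclimation, had 4.62, 4.41 and 3.94 in the wild type arrays. In the mutant arrays it had 2.89, 2.88 and 2.42. Array 3 was the lowest of its group in both lines, and the groups stayed 1.05 apart. The means were 4.33 ± 0.35 and 2.73 ± 0.27 (SD, n = 3), with a log2 fold change of -1.59 (SE 0.22), the 18th lowest of all genes.

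ERF104 (AT5G61600, chromosome 5), a partner of MPK6 in the response to bacterial flagellin, had 6.24, 5.91 and 5.77 in the wild type arrays. In the mutant arrays it had 4.58, 5.01 and 5.16. The groups were 0.61 apart, with the mutant arrays spread more widely than the wild type ones. The log2 fold change was -1.06 (SE 0.21), from 5.97 ± 0.24 to 4.92 ± 0.30 (SD, n = 3), and ranked 129th from the lowest.

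ERF5 (AT5G47230, chromosome 5), the closest relative of ERF6 and a partner in the same growth response, differed least of the 4. It had 4.19, 3.62 and 4.45 in the wild type arrays and 3.61, 3.55 and 3.36 in the mutant arrays. Wild type array 2 nearly touched the highest mutant array, and ERF6 was at its highest in that same wild type array. The log2 fold change was -0.58 (SE 0.22), from 4.09 ± 0.43 to 3.51 ± 0.13 (SD, n = 3), and was -0.81 without wild type array 2.

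**Figure D1:**
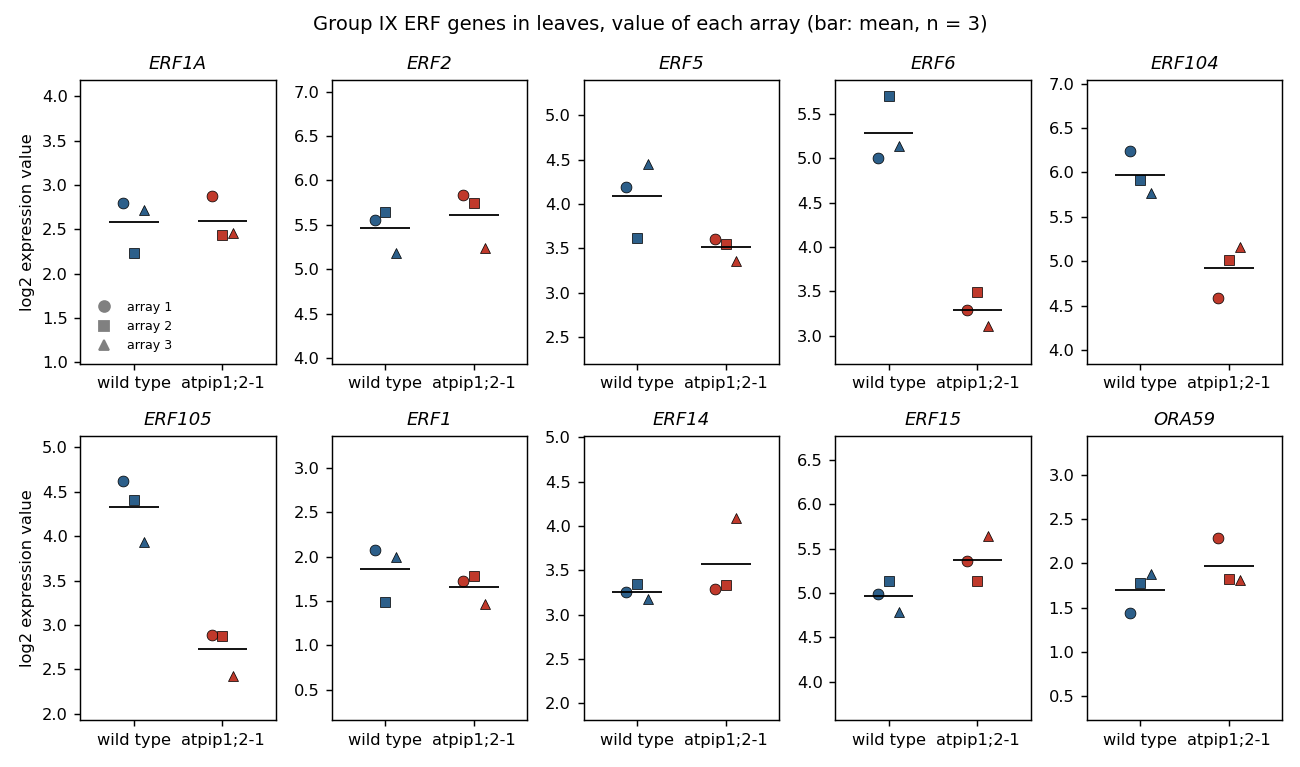
Log2 expression value (y axis) of the 10 group IX genes on each wild type (blue) and atpip1;2-1 (red) array, with the array number as the symbol and the group mean as a bar; every panel spans the same number of log2 units. ERF6, ERF105, ERF104 and ERF5 have all mutant arrays below all wild type arrays, with ERF5 nearly touching, and the other 6 genes overlap. Over all genes, 9.24% had all mutant arrays lower.

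The fit over all genes was limma's moderated test with Benjamini-Hochberg adjustment, and a gene was called at an adjusted p under 0.05. ERF6 and ERF105 were called and the other 8 were not, where 0.342% of all genes were called and 0.155% were called lower. Groups without overlap and with the mutant lower were seen in 4 of the 10, where 9.24% of all genes had them. None of the 10 had the mutant higher without overlap, where 9.3% of all genes did. Because the picked genes include those that prompted the choice, these shares carry no evidence about the family. The median log2 fold change of the 10 was -0.09, with 5 lower and 5 higher in the mean, and that of all genes was -0.01, with 51.6% lower in the mean. The call of ERF105 ended when any one array other than wild type array 3 was left out (-1.44 to -1.67), and that of ERF6 ended without mutant array 3 (-1.89).

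The 2 picked genes of subgroup IXa gave similar values in both lines. ERF1A (AT4G17500, chromosome 4), an activator at the GCC box, had 2.80, 2.23 and 2.72 in the wild type arrays and 2.87, 2.44 and 2.46 in the mutant arrays. The lines differed by 0.01 (SE 0.21) on the log2 scale. ERF2 (AT5G47220, chromosome 5), another GCC box activator that acts in jasmonate defence, had 5.56, 5.64 and 5.18 in the wild type arrays and 5.84, 5.75 and 5.24 in the mutant arrays. Array 3 was the lowest for ERF2 in both lines, as it was for ERF105. The log2 fold change of ERF2 was 0.15 (SE 0.21), within the spread of its arrays.

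The 4 picked genes of subgroup IXc had log2 fold changes from -0.19 to 0.41, each with overlapping groups. ERF1 (AT3G23240, chromosome 3), a direct target of the ethylene regulator EIN3, had 2.08, 1.49 and 2.00 in the wild type arrays and 1.73, 1.78 and 1.47 in the mutant arrays. The difference was -0.19 (SE 0.20) on the log2 scale. ORA59 (AT1G06160, chromosome 1), the main activator of PDF1.2 under jasmonate and ethylene, had 1.44, 1.78 and 1.88 in the wild type arrays and 2.29, 1.82 and 1.81 in the mutant arrays. For ORA59 the log2 fold change was 0.27 (SE 0.20), with mutant array 1 above the other 5 arrays.

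ERF1 and ORA59 were the 2 of the 10 genes whose mean over the 6 arrays lay below the 25th percentile of gene means. The tables carry no detection calls, so whether their signals stood above background is not known here.

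ERF14 (AT1G04370, chromosome 1), a regulator of other defence ERF genes, had 3.26, 3.35 and 3.18 in the wild type arrays and 3.29, 3.33 and 4.09 in the mutant arrays. Its log2 fold change of 0.31 (SE 0.22) came from mutant array 3, and was 0.05 without it. ERF15 (AT2G31230, chromosome 2), a factor of immunity and the abscisic acid response, had 4.99, 5.13 and 4.79 in the wild type arrays and 5.36, 5.13 and 5.64 in the mutant arrays. In ERF15 the log2 fold change was 0.41 (SE 0.19), the highest of the 10, and mutant array 2 lay at the level of wild type array 2.

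The 10 genes did not share 1 pattern among the arrays of a line. In the mutant, array 3 gave the lowest value of ERF1, ERF2, ERF5, ERF6, ERF105 and ORA59, and the highest value of ERF14, ERF15 and ERF104. In the wild type, array 2 gave the highest value of ERF2, ERF6, ERF14 and ERF15 and the lowest of ERF1, ERF1A and ERF5. The mean of the 4 picked IXb genes lay at 5.01, 4.91 and 4.83 in the wild type arrays and at 3.59, 3.73 and 3.51 in the mutant arrays. These 4 include the genes on which the family was selected, so the distance between lines is a description only. The SD within lines had a median of 0.28 over the 10 genes and of 0.23 over all genes.

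The 7 group IX genes that were not picked gave no called difference with limma (0 at an unadjusted p under 0.05, against 12.2% of all genes). ERF107, also known as DEWAX, a repressor of wax synthesis in subgroup IXb, had 5.43, 5.40 and 5.32 in the wild type arrays and 5.58, 5.71 and 5.69 in the mutant arrays. It was the only 1 of the 7 whose groups did not overlap, where 18.5% of all genes had groups without overlap. Its log2 fold change was 0.28 (SE 0.15, limma adjusted p = 0.500). ERF106, the remaining IXb gene, had 0.06 (SE 0.20). ERF13 of subgroup IXa had 0.08 (SE 0.26). In subgroup IXc the log2 fold changes were 0.24 (SE 0.20) for ERF091, 0.22 (SE 0.19) for ERF095, -0.02 (SE 0.20) for ERF096 and 0.17 (SE 0.17) for ERF098. The adjusted limma p of these genes ranged from 0.500 to 0.980. Over the whole of subgroup IXb, 4 of 6 genes were lower and 2 higher in the mean.

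**Figure D2:**
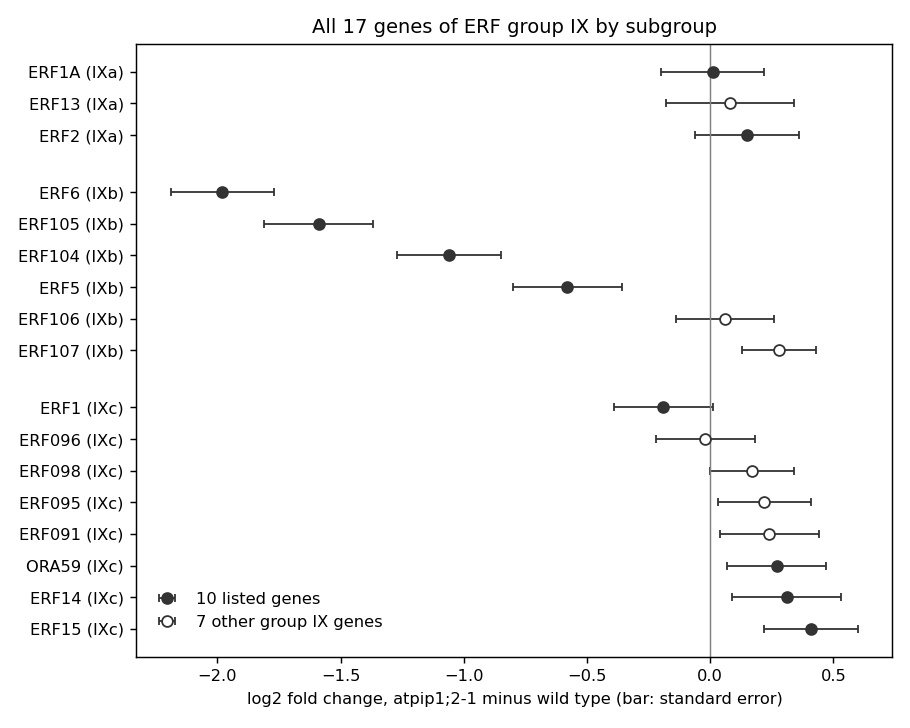
Log2 fold change of atpip1;2-1 over wild type (x axis, bars are standard errors from limma, n = 3 arrays per line) for the 17 genes of ERF group IX, ordered by subgroup, with picked genes filled and the others open. ERF6, ERF105, ERF104 and ERF5 lie left of 0 at -1.98, -1.59, -1.06 and -0.58, and the other 13 lie between -0.19 and 0.41.

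Several of these genes lie side by side on a chromosome, in the gene order of the TAIR10.1 RefSeq table. ERF6 and ERF1A are neighbours on chromosome 4 and had log2 fold changes of -1.98 and 0.01. ERF104 and ERF107 are neighbours on chromosome 5 and had -1.06 and 0.28. ERF2 and ERF5 lie with 1 measured gene between them on the same chromosome and had 0.15 and -0.58. ERF095, ERF098 and ERF1 are a row of 3 on chromosome 3 and had 0.22, 0.17 and -0.19. None of the measured genes next to a picked gene was called except ERF6 beside ERF1A. The difference between adjacent genes was not tested.

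The genes whose array profiles lay nearest to ERF6 and ERF105 were found by the root mean square difference of profiles centred on their own mean, over the 6 arrays and all genes but the 10. This distance takes in the difference between lines, so it favours genes that were lower in the mutant. The calls and adjusted p-values of genes found this way therefore carry no evidence and are given as a description. Nearest to ERF6 were RPL9, for a plastid ribosomal protein (0.28), AT1G31690 (0.28) and AT2G24600 (0.29). Nearest to ERF105 were AT1G05575 (0.11), AT1G78410 (0.14) and again RPL9 (0.18). AT1G05575 had 5.19, 4.99 and 4.47 in the wild type arrays and 3.58, 3.26 and 3.15 in the mutant arrays, with array 3 lowest in both lines as for ERF105. Its log2 fold change was -1.55 (SE 0.22), and that of AT1G78410 was -1.43 (SE 0.27). AT1G78410 did not pass (limma adjusted p = 0.0784), and the other 4 did. Without wild type array 2 the adjusted p was 0.0511 for RPL9, 0.0511 for AT1G31690 and 0.0616 for AT2G24600. With 1 array left out, AT1G05575 passed only without wild type array 3 (adjusted p up to 0.131 in the other 5 fits), and AT1G78410 also passed there (0.0396). AT1G78410 passed as well with a variance trend and robust fitting (0.0228) and with array weights (0.031).

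Upstream of the family, ethylene synthesis held 1 called gene and ethylene perception none, where 0.342% of all genes were called. These lists and those below were chosen with earlier results of these data known, so their counts of called genes are descriptions only. ACS11, for an ACC synthase that makes the ethylene precursor, fell from 4.09, 4.27 and 4.13 in the wild type arrays to 2.83, 2.77 and 2.68 in the mutant arrays. Its log2 fold change was -1.40 (SE 0.15, limma adjusted p = 0.00987), and its adjusted p without wild type array 2 was 0.0511. ACS6, an ACC synthase that MPK3 and MPK6 stabilise, was chosen after its values were seen. It had -0.94 (SE 0.19, limma adjusted p = 0.101), without overlap of the groups, as in 18.5% of all genes. The other 12 of the 14 ACC synthase and ACC oxidase genes were not called, and the list had a median of 0.03, with 7 genes higher and 7 lower in the mean.

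Of 14 genes of ethylene perception and signalling, none was called (limma), and 1 gene had an unadjusted p under 0.05, against 12.2% of all genes. That gene was EIN3, the transcription factor at the end of the pathway, with 7.63, 7.74 and 7.64 in the wild type arrays and 8.10, 8.26 and 8.48 in the mutant arrays. Its log2 fold change was 0.61 (SE 0.16, limma adjusted p = 0.190), 0.33 in the table per probe set, and it passed with a variance trend and robust fitting (adjusted p = 0.0394). The receptor gene ETR1 had 0.37 (SE 0.17, limma adjusted p = 0.410). The median of the list was 0.04.

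A list of 8 MAP kinase cascade genes, MPK3 and MPK6 among them, gave no called gene with limma (3 had an unadjusted p under 0.05, against 12.2% of all genes). The list had a median of 0.15. MPK6 had 0.53 (SE 0.19, limma adjusted p = 0.300), and each mutant array lay above each wild type array, as in 9.3% of all genes. MEKK1, the kinase at the top of one such cascade, had 1.42 (SE 0.55, limma adjusted p = 0.341). Its wild type arrays ran from 3.93 to 6.64, and without wild type array 3, the lowest, its log2 fold change was 0.66.

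Among the listed genes of ERF groups VII, VIII and X, 1 was called, where 0.342% of all genes were. RAP2.6, a group X factor induced by jasmonate, abscisic acid and wounding, fell from 4.97, 4.92 and 4.72 to 3.09, 3.62 and 3.34, a log2 fold change of -1.52 (SE 0.18, limma adjusted p = 0.0125). Without mutant array 1 or 3 its adjusted p was 0.0579 or 0.0829, and without wild type array 1 or 2 it was 0.0576 or 0.0672. The other 7 group X genes were not called, and the median of the 8 was -0.26, with 7 lower in the mean. None of the 8 group VIII genes, which code mostly for repressors with an EAR motif, was called with limma. Among them 1 had an unadjusted limma p under 0.05, against 12.2% of all genes. Their median was 0.30. ERF8 had 0.61 (SE 0.21, limma adjusted p = 0.295) and ERF11 had 0.54 (SE 0.25, limma adjusted p = 0.417). None of the 5 group VII genes, which act in low oxygen, was called with limma (2 at an unadjusted p under 0.05, against 12.2% of all genes). Those 2 were RAP2.12 with 0.69 (SE 0.16, limma adjusted p = 0.131) and RAP2.2 with 0.58 (SE 0.19, limma adjusted p = 0.259). Both had groups without overlap, as did 18.5% of all genes. With a variance trend and robust fitting RAP2.12 passed (adjusted p = 0.011).

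Of 5 genes placed downstream of ERF5 and ERF6 in studies of leaf growth under osmotic stress, 1 was called. Over all genes the share called was 0.342%. STZ, the zinc finger repressor also named ZAT10, fell from 6.47, 6.95 and 6.77 to 5.75, 5.28 and 5.66, a log2 fold change of -1.17 (SE 0.20, limma adjusted p = 0.0491). That call ended in each fit that left out 1 array (adjusted p from 0.0912 to 0.188), after quantile normalization (0.0602) and with equal array medians (0.0558). MYB51, a regulator of indole glucosinolate synthesis, had -0.97 (SE 0.19, limma adjusted p = 0.0872), and WRKY33, a regulator of camalexin synthesis, had -0.51 (SE 0.26, limma adjusted p = 0.473). The gibberellin-inactivating enzyme gene GA2OX6 had -0.06 (SE 0.18), and the repressor gene ERF11 had 0.54, as given above. MYB51, WRKY33 and GA2OX6 were named after their values were seen. The median of the 5 was -0.51.

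The other regulators of the leaf osmotic stress network included 1 called gene among 11, WRKY40, where 0.342% of all genes were called. Among the 11, 5 had an unadjusted limma p under 0.05, against 12.2% of all genes, and of these ERF8 was higher in the mutant. Groups without overlap and with the mutant lower were seen in 4, against 9.24% of all genes. Their median was -0.02. WRKY40 fell from 5.15, 5.49 and 5.63 to 3.79, 4.07 and 4.12, a log2 fold change of -1.43 (SE 0.18, limma adjusted p = 0.0184). It belongs as well to the list of rapid touch and stress genes. Of those 13, 4 were called lower, where 0.155% of all genes were, none was called higher and 9 were not called. The list was chosen with earlier results of these data known, so this count is a description only. Its median was -0.59, with 12 genes lower and 1 higher in the mean, where 51.6% of all genes were lower. The other 3 called lower were WRKY53, SZF1 and STZ. WRKY53, a factor of leaf senescence and defence, had -1.19 (SE 0.16, limma adjusted p = 0.0219). SZF1, a zinc finger gene of the salt response, had -1.15 (SE 0.17, limma adjusted p = 0.0261). With 1 array left out, WRKY40 passed only without wild type array 1, and WRKY53 and SZF1 only without wild type array 3. The adjusted p in the other 5 fits ranged up to 0.0968 for WRKY40, 0.114 for WRKY53 and 0.128 for SZF1. The 9 uncalled genes of the list had log2 fold changes between -0.71 and 0.36.

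**Figure D3:**
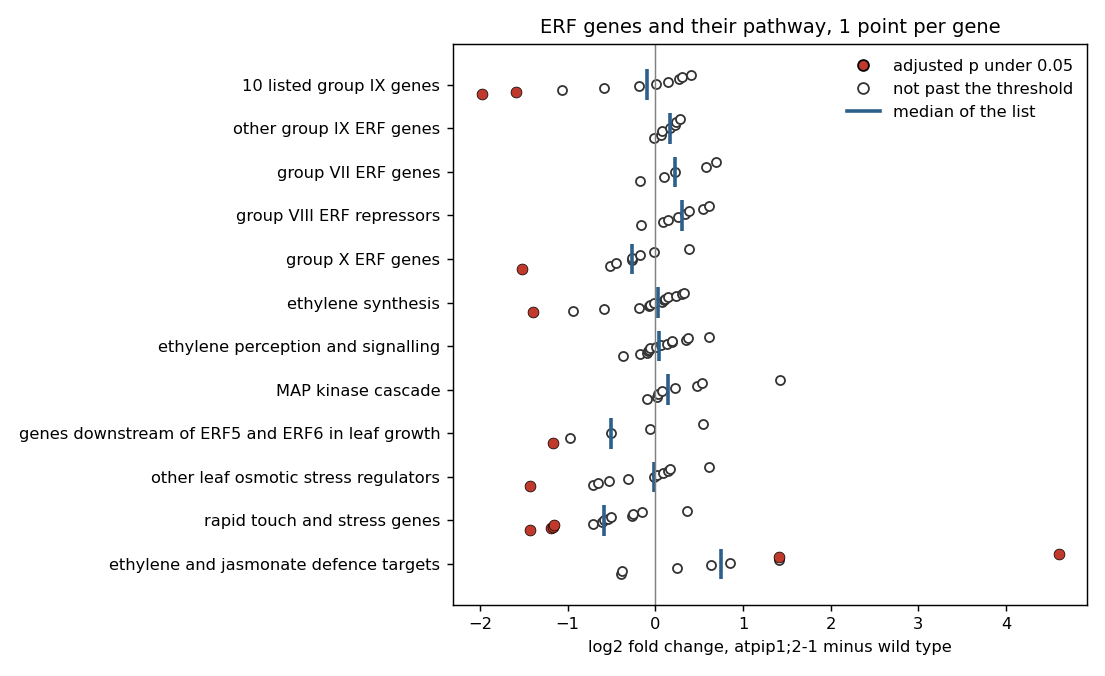
Log2 fold change of atpip1;2-1 over wild type (x axis) for each gene of the 10 picked group IX genes and of the lists around them, with called genes in red, uncalled genes open and the median of each list as a blue line. Rapid touch and stress genes hold 4 called genes, all lower, and the defence targets hold 2, both higher. Over all genes, 0.342% were called.

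A list of 8 defence genes of the ethylene and jasmonate pathways held 2 called genes, both higher, where 0.187% of all genes were called higher. PDF1.2b, for a plant defensin, had 1.45, 2.1 and 1.71 in the wild type arrays and 6.93, 6.78 and 5.36 in the mutant arrays. Its log2 fold change was 4.60 (SE 0.38, limma adjusted p = 0.00514), the highest of all genes, though its wild type mean lay below the 25th percentile of gene means. HEL, the hevein-like gene also named PR4, rose from 6.64, 6.89 and 6.79 to 8.37, 8.32 and 7.86, a log2 fold change of 1.41 (SE 0.19, limma adjusted p = 0.0190). Its call held with 1 array left out only without mutant array 3 (adjusted p up to 0.0901 in the other 5 fits).

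The other 6 genes of that list were not called. PDF1.2a had 1.41 (SE 0.33, limma adjusted p = 0.139), without overlap of the groups, and 1.83 with an adjusted p of 0.0247 without wild type array 1. PDF1.2c had 0.85 (SE 0.30) and 0.31 in the table per probe set. PDF1.3 had 0.25 (SE 0.20), PDF1.1 had -0.38 (SE 0.24) and PDF1.4 had -0.39 (SE 0.17). CHI-B, the basic chitinase gene, had 0.64 (SE 0.18, limma adjusted p = 0.210) and its groups did not overlap. Groups without overlap were seen in 18.5% of all genes. The median of the 8 was 0.75. PDF1.2a, PDF1.2b and PDF1.2c are known as near-identical copies, and whether their probes read each other's transcripts was not tested. ERF1 and ORA59, the factors of the family described above as acting on plant defensin genes, had -0.19 and 0.27, as given above.

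**Figure D4:**
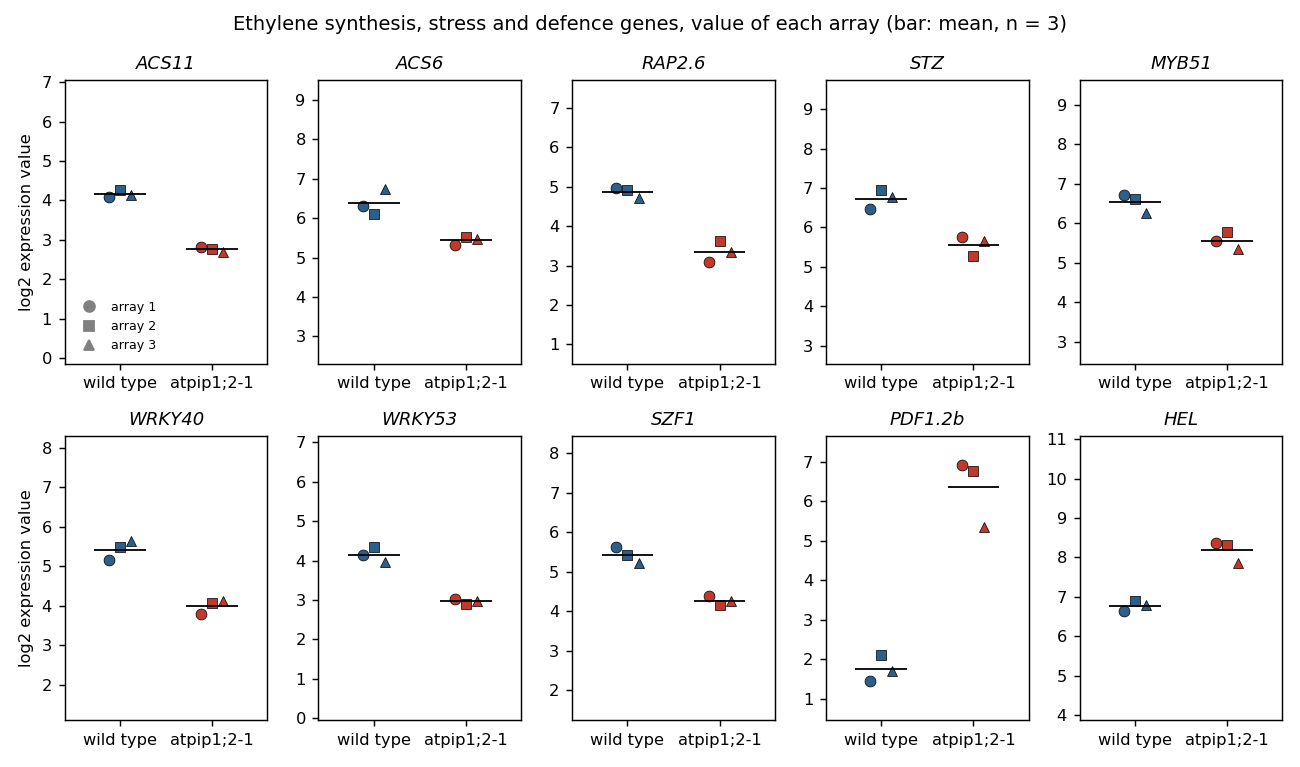
Log2 expression value (y axis) of 10 genes around the family on each wild type (blue) and atpip1;2-1 (red) array, with the array number as the symbol and the group mean as a bar; every panel spans the same number of log2 units, more than in the plot of the picked genes. In ACS11, RAP2.6, STZ, WRKY40, WRKY53, SZF1 and the uncalled ACS6 and MYB51 all mutant arrays lie below the wild type arrays, and in PDF1.2b and HEL above them. The plot shows the called genes of the pathway lists plus ACS6 and MYB51, which were named after their values were seen. It therefore does not stand for the lists as a whole. Over all genes, 18.5% had groups without overlap.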

How the data were processed

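The deposited table per gene holds log2 values, 1 per AGI code and array. Per the submitters' processing notes, RMA and Partek were used, with no versions or roles. For the genome build and the grouping of probes, the sources used here give nothing. Another deposited table holds log2 values per probe set, its scale judged from its range. Of its 38408 probe sets, 16722 had 1 gene in the platform annotation, which gave 16411 genes, 0 of them among the 10. Columns were matched to arrays by the labels' descriptions, and arrays to lines by their titles. The number of arrays limits the precision.

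All 28387 genes were fitted by lmFit and eBayes of limma 3.58.1 (R 4.3.3), two-sided and without covariates, and adjusted with Benjamini-Hochberg. The fit was also run on simulated data with independent normal noise, as a check of the code only. That run says nothing about the calls in these arrays. Symbols came from RefSeq (TAIR10.1, 27681 genes matched) or the lists. The labels call the arrays biological replicates. The members, the 11 pathway lists and the 5 marker lists were chosen with earlier results of these data known.

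Named were PIP1;2, the 17 group IX genes, the 8 defence targets, the 3 nearest profiles of ERF6 and of ERF105, and, from each other pathway list, up to 4 called genes with the largest change, or otherwise the 2 with the smallest unadjusted p. Exceptions are stated. The alternatives were the table per probe set, a filter on dim genes, a variance trend with robust fitting, array weights, quantile normalization, equal medians, a replicate block and leaving out each array. Figures were drawn with matplotlib 3.10.9 in Python 3.11.15.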

Additional observations from a re-analysis of the deposited data

How the results depend on the processing

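Over the alternatives tried, the log2 fold change of ERF6 stayed between -2.12 and -1.78, of ERF105 between -1.79 and -1.44, of ERF104 between -1.18 and -0.89 and of ERF5 between -0.81 and -0.40. ERF6 passed the threshold in 11 of 12 alternatives, ERF105 in 7 and ERF104 in 2 (variance trend with robust fitting, and array weights). The family was selected on ERF6 and ERF105 in these same arrays, so such counts are a description and carry no evidence. The count of the 10 genes past the threshold ran from 0 to 2 with 1 array left out. Their median ran from -0.27 to 0.02 with 1 array left out, and was -0.29 without the dimmest 25% of genes, which drops ERF1 and ORA59. Over all genes, 97 passed, 53 higher and 44 lower: 31 (16 and 15) in the table per probe set, 375 (216 and 159) with a variance trend and robust fitting, 45 (23 and 22) with the replicate block, and 14 to 48 (10 to 22 and 4 to 26) with 1 array left out, where fewer arrays were fitted. The cause of the other shifts was not tested. Same-numbered arrays of the lines correlated in their deviations at 0.008, 0.050 and 0.075. Different-numbered arrays ran from -0.08 to 0.047, the latter for wild type array 1 with mutant array 2 and the only positive one. All these values were weak and do not settle whether the numbers mark pairs. The main fit did not take the numbers as pairs. With the block the adjusted p was 0.108 for STZ, 0.0646 for WRKY53, 0.0635 for SZF1 and 0.0517 for HEL, and AT1G78410 passed (0.0366). A variance trend with robust fitting also took EIN3 (0.0394), RAP2.12 (0.011) and AT1G78410 (0.0228) past the threshold, and array weights AT1G78410 (0.031). Signs turned in 4 uncalled genes: ERF1A (-0.17 to 0.11 with 1 array left out), ERF096 (0.02 with quantile normalization, 0.01 with equal medians, up to 0.18 and down to -0.15 with 1 array left out), ERF13 (-0.14 to 0.33 with 1 array left out) and ERF106 (-0.06 in the table per probe set, -0.14 to 0.20 with 1 array left out). Dim genes have no detection calls, which limits ERF1, ORA59 and the defensin genes.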
